A study of Homo sapiens with 15 samples.

Results

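Expression after 48 h of geldanamycin at 40 nM was compared with expression after 48 h of vehicle in A549, an established line of human lung carcinoma cells of epithelial origin. The comparison uses 6 of the 15 arrays of the series, chosen by their titles: 3 arrays of cells given geldanamycin at 40 nM for 48 h, and 3 arrays of cells given the vehicle, DMSO at 0.4%, for 48 h. The other 9 arrays came from 3 further groups of 3, which were cells given 10 nM geldanamycin over 48 h, 40 nM over 24 h, or vehicle over 24 h. Per the labels, 40 nM had been determined as the IC50 and 10 nM as the IC20. The labels also give DMSO at 0.4% and 24 h of attachment before treatment for every group, treated or vehicle. Cells were confluent when they were collected, by the same labels. All arrays are of 1 cell line, and the labels do not say that the 3 arrays of a group came from separate cultures, so the spread between them may be technical.

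Geldanamycin binds the ATP pocket of HSP90, a chaperone that keeps many kinases, steroid receptors and transcription factors in a folded state. Clients that lose HSP90 are commonly degraded, and the heat shock factor HSF1, which HSP90 holds inactive, is released to switch on the genes of HSP70, small heat shock proteins and HSP90 itself. NF-kB is a family of transcription factors that are kept in the cytosol by inhibitors and set free by the IKK kinases, and it drives chemokines, cytokines, adhesion molecules and the genes of its own inhibitors. In alveolar epithelium these genes mark the response to infection and injury.

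The values are log2 RMA expression values, 1 for each of 19775 genes on each array. A549 arrays of both groups carried epithelial transcripts: the mean log2 value over 7 epithelial identity genes lay between 9.80 and 9.89 on the 40 nM arrays and between 9.26 and 9.35 on the vehicle arrays. Markers of leukocytes lay between 4.30 and 4.43 at 40 nM and between 4.22 and 4.34 in vehicle, those of fibroblasts between 4.92 and 5.003 and between 5.07 and 5.09, and those of endothelium between 3.98 and 4.09 and between 3.95 and 4.04. Correlations between arrays of a group lay between 0.9977 and 0.9985. The 3' minus 5' difference of the control probe sets for ACTB, a measure of RNA integrity, averaged 0.44 ± 0.03 at 40 nM and 0.35 ± 0.06 in vehicle, and that for GAPDH 0.15 ± 0.02 and 0.15 ± 0.03 (SD, n = 3 each). In bulk RNA, fewer cells that make a transcript and less of it per cell cannot be told apart.

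After 48 h at 40 nM, most of the measured chemokines, inflammatory cytokines, NF-kB feedback inhibitors and interferon-stimulated effectors were higher than in vehicle, and most of the measured ATF4 targets and genes of amino acid supply were lower. In limma's test, with Benjamini-Hochberg adjusted p below 0.05 over the 19775 genes, 4207 genes changed (21.3%), 2085 higher (10.5%) and 2122 lower (10.7%). The median change over all genes was -0.02 on the log2 scale, and the median size among the genes that changed was 0.38. Large changes were mostly rises: 195 genes (0.986%) were higher by at least 2-fold and 45 (0.228%) were lower by at least 2-fold. A log2 change of at least 2 was reached by 36 genes that rose and 5 that fell. The arrays of the groups did not overlap for 7663 genes (38.8%), among them 2069 of the genes that rose and 2108 of those that fell, so the lack of overlap by itself is common here. All "±" values of changes below are standard errors of that fit on the log2 scale, with 3 arrays in each group.

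Among the 15 largest rises were 3 CC chemokines, proteins that draw leukocytes to a tissue. CCL20, the ligand of CCR6, read 11.03, 10.97 and 11.07 on the 40 nM arrays, against 7.68, 7.53 and 7.59 on the vehicle arrays. Its change of 3.42 ± 0.10, or 10.7-fold, was the largest rise of all named genes (limma adjusted p = 8.2e-11). CCL2, which draws monocytes, stood at 12.61, 12.70 and 12.63 with 40 nM, against 9.56, 9.39 and 9.41 with vehicle, a 9.15-fold rise. CCL5, a chemokine for T cells, stood at 8.27, 8.28 and 8.35 with 40 nM and at 5.43, 5.28 and 5.24 with vehicle, a 7.89-fold rise. For each of these chemokines every treated array lay more than 2 log2 units above every vehicle array.

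Other inflammatory genes stood beside them. BCL2A1, an anti-apoptotic BCL2 family member and NF-kB target, read 9.63, 9.65 and 9.63 at 40 nM, against 6.84, 7.05 and 6.58 in vehicle (change 2.81 ± 0.15). VCAM1, an adhesion molecule that binds integrins of leukocytes, read 7.07, 7.15 and 6.94 at 40 nM and 4.35, 4.45 and 4.33 in vehicle (2.67 ± 0.15). The treated arrays of BCL2A1 lay closer together than its vehicle arrays. EBI3, a subunit of IL-27 and IL-35, rose by 2.60 ± 0.16 and the pentraxin PTX3, a soluble pattern recognition molecule, by 2.48 ± 0.11. PTGS2, the inducible cyclooxygenase of prostaglandin synthesis, stood at 10.38, 10.35 and 10.38 with 40 nM and at 7.99, 7.81 and 7.88 with vehicle, a 5.56-fold rise.

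The remaining large rises had other roles. COXFA4L3, a paralog of a cytochrome c oxidase subunit, read 9.52, 9.71 and 9.59 at 40 nM against 6.28, 6.13 and 6.30 in vehicle, the second largest rise (3.37 ± 0.11). GPX2, the gastrointestinal glutathione peroxidase, read 11.71, 11.72 and 11.77 at 40 nM against 9.24, 9.07 and 9.09 in vehicle (2.60 ± 0.07). Both genes were measured with little spread. The tetraspanin-like membrane proteins TM4SF4 and TM4SF20 rose by 2.56 ± 0.09 and 2.54 ± 0.22, and HGD, a dioxygenase of tyrosine breakdown, by 2.42 ± 0.10. TM4SF20 had the widest error of these, with 7.72, 8.18 and 8.11 at 40 nM and 5.45, 5.25 and 5.67 in vehicle. EFHB, an EF-hand protein, rose by 2.39 ± 0.13 and the retinoid-responsive gene RARRES1 by 2.35 ± 0.12. The other probe set named for EFHB, at 3.25 with 40 nM, read a change of 0.11, so its rise rests on 1 probe set.

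**Figure D1:**
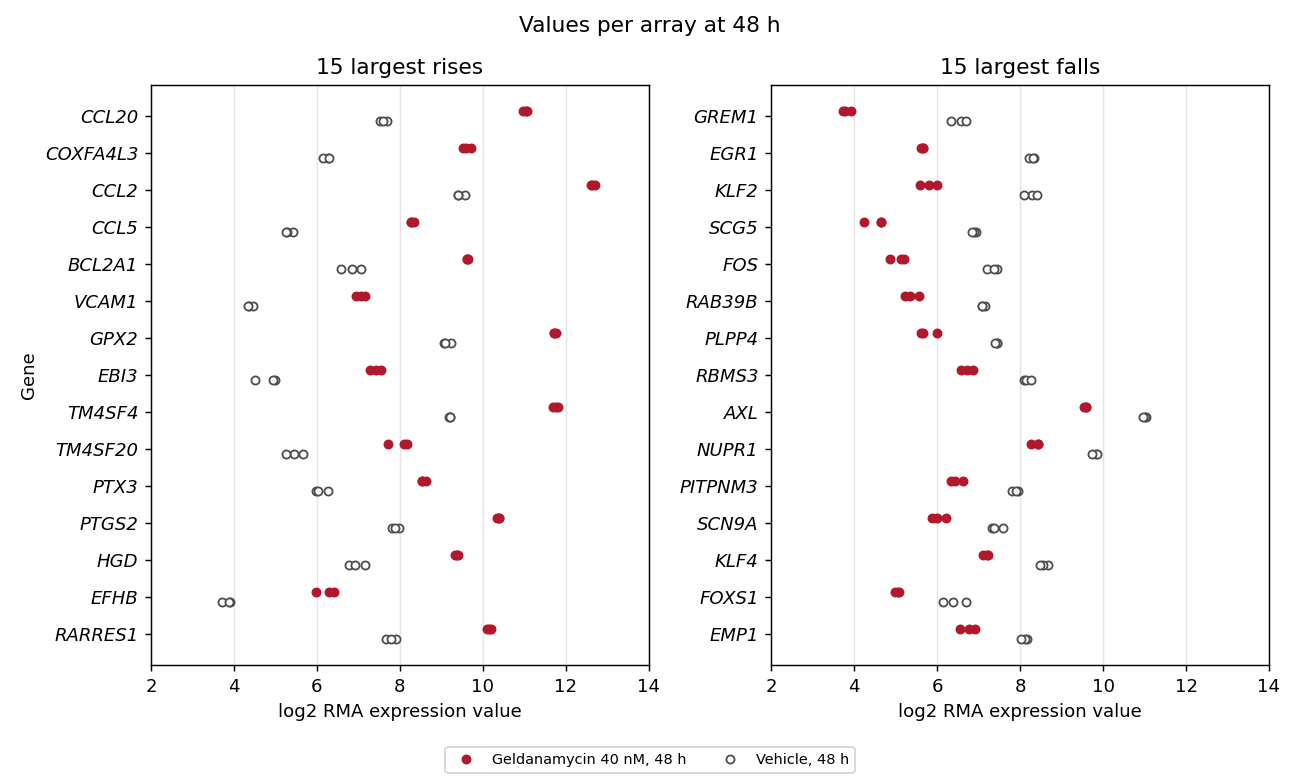
Log2 RMA expression value of each array (x axis) for the 15 largest rises and the 15 largest falls (y axis), with filled points for geldanamycin 40 nM and open points for vehicle, 3 arrays each at 48 h. The 30 genes were chosen among those whose groups do not overlap. CCL20 and GREM1 at the top of each panel are 3.42 and -2.72 apart on average.

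The promoters of the first genes of each direction are shown because CCL20 and VCAM1 are textbook targets of NF-kB, and EGR1 and FOS of the serum response factor SRF. Each line holds the 250 bases before the start of the RefSeq gene on GRCh38.p14, 5' to 3' on the strand of the gene, in lower case with the motifs that were found in capitals. CCL20 lies at chr2:227813592-227813841 on the plus strand, VCAM1 at chr1:100719492-100719741 on the plus strand, EGR1 at chr5:138465229-138465478 on the plus strand, FOS at chr14:75278578-75278827 on the plus strand and BCL2A1 at chr15:79971197-79971446 on the minus strand.
CCL20: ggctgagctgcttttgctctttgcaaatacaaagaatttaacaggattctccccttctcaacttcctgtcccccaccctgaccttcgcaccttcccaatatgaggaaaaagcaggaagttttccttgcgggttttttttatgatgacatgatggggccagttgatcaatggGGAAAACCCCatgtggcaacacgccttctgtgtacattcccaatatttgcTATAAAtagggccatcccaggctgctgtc
VCAM1: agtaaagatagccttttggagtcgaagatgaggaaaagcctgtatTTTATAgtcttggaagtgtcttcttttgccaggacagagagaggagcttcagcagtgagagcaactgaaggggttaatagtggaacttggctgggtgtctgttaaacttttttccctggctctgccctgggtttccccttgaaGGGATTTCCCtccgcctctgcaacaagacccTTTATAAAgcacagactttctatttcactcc
BCL2A1: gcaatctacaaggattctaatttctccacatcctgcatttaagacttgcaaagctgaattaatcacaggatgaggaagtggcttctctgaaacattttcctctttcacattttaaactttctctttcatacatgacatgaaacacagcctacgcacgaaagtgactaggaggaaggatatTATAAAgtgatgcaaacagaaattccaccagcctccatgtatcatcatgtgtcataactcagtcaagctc
EGR1: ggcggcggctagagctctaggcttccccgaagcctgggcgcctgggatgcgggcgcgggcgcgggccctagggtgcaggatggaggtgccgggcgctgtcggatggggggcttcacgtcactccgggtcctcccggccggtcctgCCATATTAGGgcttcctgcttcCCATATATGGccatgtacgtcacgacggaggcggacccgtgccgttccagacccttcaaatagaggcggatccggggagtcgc
FOS: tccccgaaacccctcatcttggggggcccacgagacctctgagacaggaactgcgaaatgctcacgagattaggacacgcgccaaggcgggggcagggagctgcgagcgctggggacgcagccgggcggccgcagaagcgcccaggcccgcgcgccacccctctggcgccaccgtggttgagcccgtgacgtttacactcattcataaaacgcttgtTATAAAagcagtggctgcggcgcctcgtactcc

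Of the 10 promoters read, for the first 5 genes with an entry in each direction, CCL20 and VCAM1 held the NF-kB consensus, 1 match each, at 79 to 70 and at 62 to 53 bases before the start. That motif occurred in 5.21% of 35116 promoters of the same length, with both strands searched. EGR1 held 2 CArG boxes, the motif of SRF, at 105 to 96 and at 83 to 74 bases before the start, and 1.16% of promoters held one. The TATA motif TATAAA was found in CCL20, BCL2A1 and FOS once each and in VCAM1 3 times, of which 1 pair overlaps on opposite strands, against 10.7% of promoters. No match was found in any of the 10 for the AP-1 motif TGANTCA (6.57% of promoters), the palindromic cAMP response element (1.65%) or the heat shock element (0.441%). The promoters of COXFA4L3, GPX2, GREM1, KLF2 and SCG5 held none of the motifs. These matches describe letters in a window and are no evidence of binding.

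The 5 largest falls were those of GREM1, EGR1, KLF2, SCG5 and FOS. GREM1, a secreted inhibitor of bone morphogenetic proteins, read 3.93, 3.78 and 3.72 on the 40 nM arrays, against 6.57, 6.70 and 6.33 on the vehicle arrays (-2.72 ± 0.13, limma adjusted p = 3.8e-09). Its values at 40 nM lay below the median of those arrays over all probe sets, which averaged 4.87, and no detection calls were used here, so no fold is given. Means below the array median also stood for SCG5 at 40 nM (4.52) and, in vehicle, for VCAM1 (4.38), EBI3 (4.82) and EFHB (3.84). Genes named below with such vehicle means include IL1A (4.52), IFI44L (3.58), IFIH1 (3.83) and TLR3 (3.73). EGR1, a zinc finger transcription factor induced within minutes by growth factors, read 5.66, 5.66 and 5.61 at 40 nM against 8.22, 8.34 and 8.32 in vehicle, a 6.30-fold fall. FOS, an AP-1 subunit with the same early kinetics, read 5.13, 4.86 and 5.20 at 40 nM against 7.44, 7.21 and 7.38 in vehicle, a 4.86-fold fall. Like all of the largest rises and falls, these genes were chosen among those whose groups do not overlap. All 3 probe sets of EGR1 and both of GREM1 read lower at 40 nM, at -0.77, -2.65 and -1.54 for EGR1 and at -2.51 and -2.72 for GREM1.

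KLF2 and KLF4, Kruppel-like transcription factors, read lower by 2.47 ± 0.15 and 1.38 ± 0.09. The call for KLF2 rests on 1 probe set whose name ends in _s_at, and its other probe set read a change of 0.05 (limma adjusted p = 0.89 without probe sets of that kind). That other probe set stood at 4.43 at 40 nM and 4.38 in vehicle, below the array median, which averaged 4.87. KLF4 fell in both of its probe sets, by 0.87 and 1.38. SCG5, a chaperone of a prohormone convertase in neuroendocrine cells, read 4.24, 4.65 and 4.66 at 40 nM against 6.93, 6.89 and 6.85 in vehicle (-2.37 ± 0.19). AXL, a receptor tyrosine kinase and HSP90 client, read 9.53, 9.58 and 9.58 at 40 nM against 11.03, 11.01 and 10.97 in vehicle (-1.44 ± 0.05). Of the other large falls, RAB39B, a small GTPase of vesicle traffic, fell by 1.74 ± 0.08, the phospholipid phosphatase PLPP4 by 1.68 ± 0.14, the RNA-binding protein gene RBMS3 by 1.44 ± 0.13 and NUPR1, a stress-induced nuclear protein, by 1.43 ± 0.10. PITPNM3, a phosphatidylinositol transfer protein, fell by 1.43 ± 0.15, the sodium channel SCN9A by 1.40 ± 0.14, the forkhead factor FOXS1 by 1.37 ± 0.12 and the epithelial membrane protein EMP1 by 1.35 ± 0.16. In PITPNM3 a further probe set read -0.14, and in EMP1 3 of 6 probe sets read between 0.04 and 0.13. At 40 nM that of PITPNM3 stood at 3.21 and those of EMP1 between 3.22 and 3.56. Of these 30 genes, 16 have several probe sets, 13 have at least 2 that were called in the same direction and none has one called in the opposite direction.

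Among the gene lists, chemokines had the highest median change. Of 16 measured chemokines 11 rose and 0 fell, with a median log2 change of 1.11 against -0.02 over all genes. Over all genes 10.5% rose and 10.7% fell, the shares that each list's count of rises and falls stands beside. Besides the CC chemokines, CXCL8, the neutrophil chemokine interleukin-8, read 12.51, 12.38 and 12.56 at 40 nM against 10.30, 10.36 and 10.39 in vehicle (2.13 ± 0.06), and CXCL3 rose by 2.11 ± 0.08. The 5 that did not pass were CXCL9, CXCL10, CXCL11, CX3CL1 and CCL28, at 0.12, 0.11, 0.07, 0.17 and 0.07. Of 17 cytokines and growth factors of inflammation 13 rose and 0 fell, with a median of 0.67. IL6, the cytokine of the acute phase response, read 10.14, 10.18 and 10.25 at 40 nM against 8.42, 8.29 and 8.27 in vehicle, a 3.64-fold rise. IL32 rose by 2.27 ± 0.08 and IL1A, an alarmin of the IL-1 family, by 2.19 ± 0.14, although another probe set of IL1A read 0.19 (adjusted p = 0.27 without _x_at and _s_at probe sets). That other probe set stood at 3.39 at 40 nM, and the one used at 6.71. TNF did not pass, at 0.29.

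Genes of the NF-kB pathway itself were among those that rose. Of 10 subunits and kinases 8 rose and 0 fell, with a median of 0.41. RELB, a subunit of the non-canonical pathway, read 7.45, 7.72 and 7.57 at 40 nM against 6.08, 5.94 and 6.002 in vehicle (1.58 ± 0.09), and NFKB2, its partner, rose by 0.77 ± 0.16. The kinases IKBKE, MAP3K14 and CHUK rose by 0.49 ± 0.08, 0.46 ± 0.07 and 0.39 ± 0.08, and NFKB1 by 0.42 ± 0.06. RELA, the main activating subunit, did not pass, at -0.09. Of 10 feedback inhibitors 6 rose and 0 fell, with a median of 0.38. TNFAIP3, the ubiquitin-editing enzyme A20, read 9.03, 9.32 and 9.16 at 40 nM against 7.12, 7.11 and 6.87 in vehicle (2.14 ± 0.09), and NFKBIE rose by 1.53 ± 0.07. NFKBIA, which encodes the inhibitor IkB-alpha, rose by 1.57 ± 0.06 and TNIP1 by 1.39 ± 0.07, but both calls ended without probe sets ending in _x_at or _s_at (0.06 and 0.09). The probe sets then read stood at 4.54 and 4.89 at 40 nM, against 11.42 and 10.77 for those used. Of the list's 6 genes that changed, 4 were then still measured and 2 kept their call.

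Of 20 genes of TNF, IL1 and Toll-like receptor signalling 10 rose and 1 fell, with a median of 0.30. IRAK2, a kinase of IL-1 and Toll-like receptors, rose by 1.91 ± 0.10, and MAP3K8, the kinase TPL2 that links these receptors to ERK, by 1.89 ± 0.13. IRAK1 fell by 0.20 ± 0.05. Of 14 adhesion and leukocyte surface molecules 5 rose and 0 fell, with a median of 0.15. ICAM1, the ligand of the leukocyte integrin LFA-1, read 6.91, 7.10 and 6.88 at 40 nM against 5.03, 5.27 and 5.30 in vehicle (1.76 ± 0.14), and CD47 rose by 0.53 ± 0.06, while the calls of CD40 (0.45 ± 0.14) and CD44 (0.16 ± 0.05) ended under several alternatives. Of the 13 probe sets of CD44, 5 were called lower and 2 higher, with changes between -0.47 and 1.59, so its direction depends on the probe set. Complement and acute phase genes had 11 rises and 0 falls of 22, with a median of 0.39. LCN2, a siderophore-binding protein, read 9.67, 9.59 and 9.74 at 40 nM against 7.64, 7.54 and 7.59 in vehicle, and C3, the central complement component, 11.53, 11.48 and 11.53 against 9.62, 9.62 and 9.64. They rose by 2.08 ± 0.08 and 1.89 ± 0.05. SERPINA3 rose by 1.27 ± 0.08 and the complement protease C1S by 1.21 ± 0.09, while CFB read 1.79 ± 0.10 from a probe set ending in _s_at and 0.05 from another.

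Prostaglandin genes changed in both directions. The phospholipase PLA2G4A, which frees arachidonate, and the terminal synthase PTGES rose with PTGS2, by 1.18 ± 0.13 and 0.98 ± 0.06, and the synthase PTGES2 fell by 0.33 ± 0.07. Of the 12 measured genes 5 rose and 2 fell, with a median of 0.09. PTGS1, the constitutive cyclooxygenase, read 0.30 ± 0.10 and its call ended under many alternatives. The receptors PTGER2 and PTGER4 did not pass, at 0.13 and 0.05.

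Interferon-stimulated effectors were mostly higher as well. Of 32 interferon-stimulated effectors 23 rose and 0 fell, with a median of 0.75. IFI44L read 5.24, 5.61 and 5.21 at 40 nM against 3.34, 3.81 and 3.58 in vehicle (1.77 ± 0.12). The guanylate-binding proteins GBP3 and GBP1 rose by 1.71 ± 0.13 and 1.35 ± 0.11. IFIT3 and IFIT1, of which IFIT1 binds viral RNA, rose by 1.57 ± 0.14 and 1.35 ± 0.11. Treated and vehicle arrays did not overlap for IFI44L or for these GBP and IFIT genes. The same held for 38.8% of all genes and for 2069 of the 2085 that rose, so it adds little to their calls. Of 21 interferon regulatory factors and sensors 15 rose and 0 fell, with a median of 0.41. The RNA sensors IFIH1, TLR3 and RIGI rose by 1.60 ± 0.19, 1.38 ± 0.11 and 0.75 ± 0.08, the receptor chain IFNGR1 by 1.23 ± 0.08 and IRF1, a transcription factor shared by the interferon and NF-kB responses, by 1.15 ± 0.09. Of 16 genes of MHC class I presentation 9 rose and 0 fell, with a median of 0.39. The immunoproteasome subunit PSMB9 rose by 1.08 ± 0.06, and TAPBP and TAP1 of the peptide-loading complex by 0.93 ± 0.10 and 0.91 ± 0.08, while HLA-B, HLA-C and B2M did not pass, at -0.01, -0.05 and 0.13. The aminopeptidase ERAP2 rose by 0.84 ± 0.13, and the call of ERAP1 (0.81 ± 0.07) ended without probe sets ending in _x_at or _s_at. Of 12 MHC class II genes 3 rose and 0 fell, with a median of 0.13, of which only RFX5, a factor of class II promoters (0.45 ± 0.06), kept its call under every alternative tried. Another probe set of RFX5 read 0.02, from 7.14 at 40 nM and 7.12 in vehicle (limma adjusted p = 0.94 over all probe sets).

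**Figure D2:**
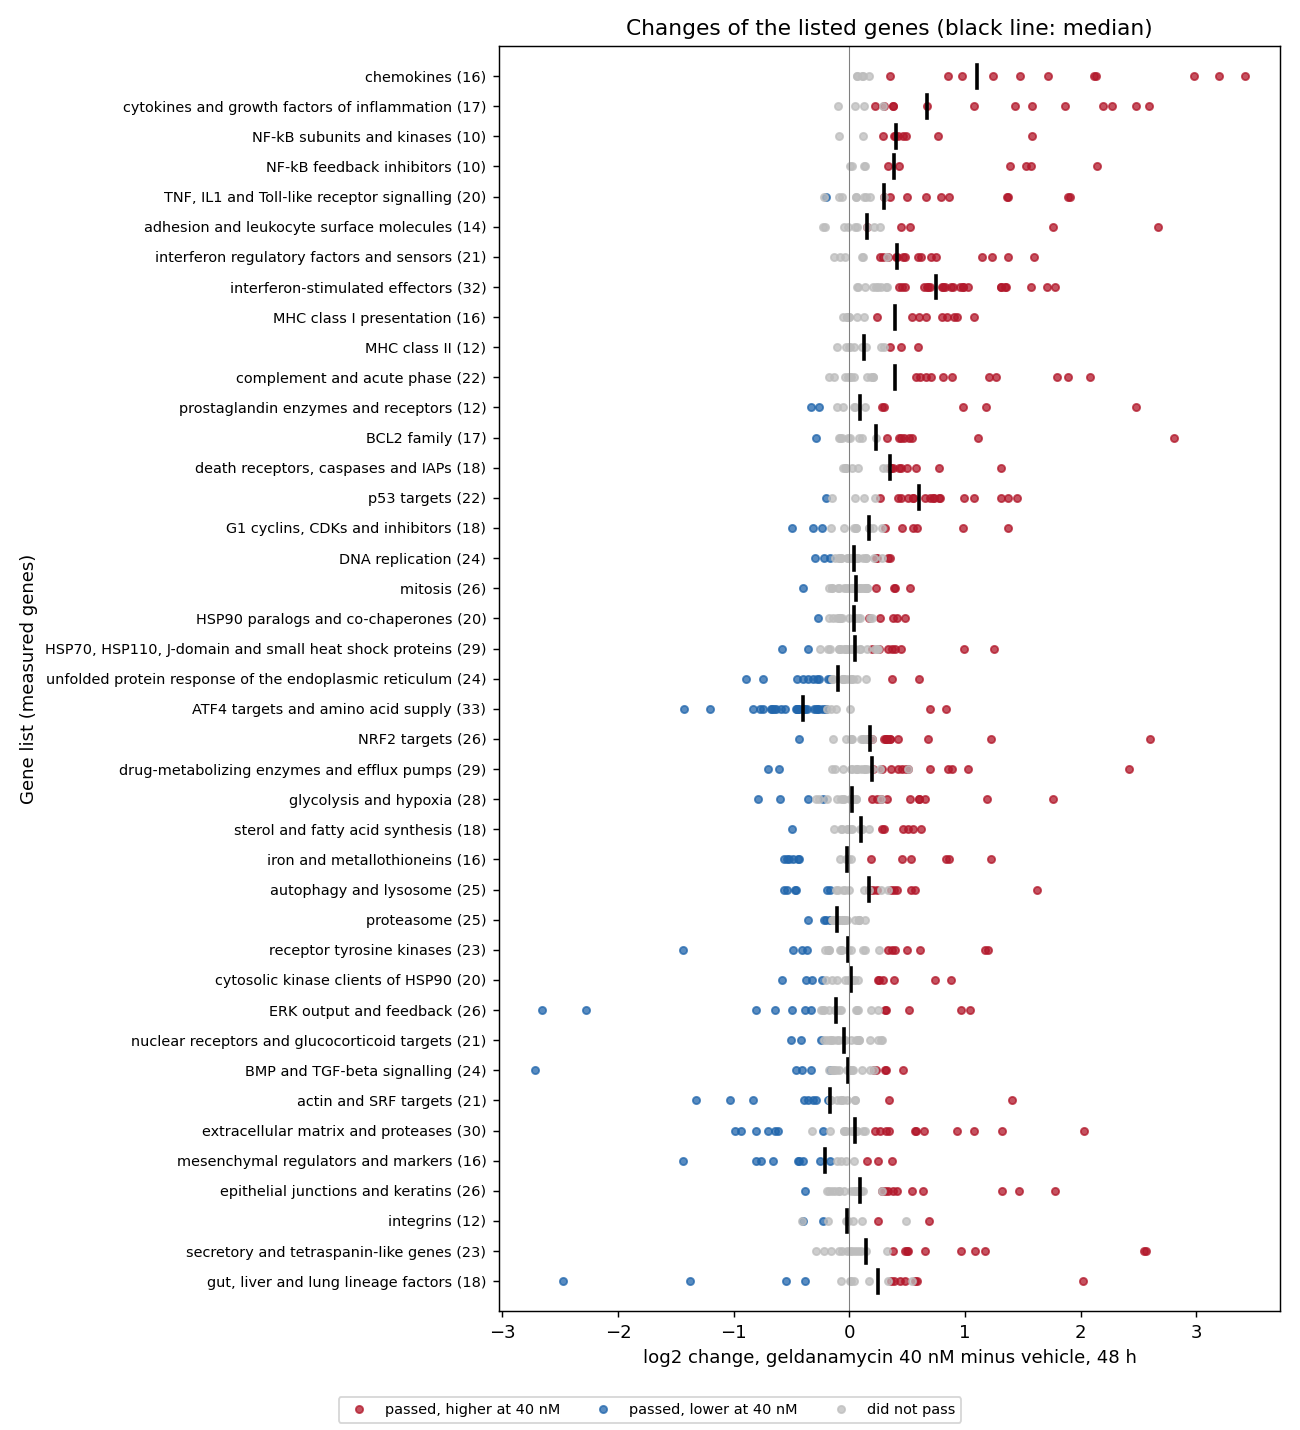
Log2 change of each measured gene, geldanamycin 40 nM minus vehicle at 48 h (x axis), for 41 gene lists (y axis, with the number of genes measured); red points passed and were higher, blue points passed and were lower, grey points did not pass, and the black line is the list's median. Chemokines have a median of 1.11 and no blue point, and ATF4 targets a median of -0.40 with 27 blue points and 2 red ones.

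Most p53 targets rose. Of 22 p53 targets 17 rose and 1 fell, with a median of 0.60. CDKN1A, the cell cycle inhibitor p21, read 10.82, 10.89 and 10.82 at 40 nM against 9.48, 9.41 and 9.51 in vehicle, a 2.60-fold rise, and MDM2, the ubiquitin ligase of p53, rose by 1.08 ± 0.07. The death receptor FAS read 8.88, 8.98 and 8.93 at 40 nM against 7.73, 7.49 and 7.63 in vehicle (1.31 ± 0.08), SESN1 rose by 0.99 ± 0.08 and TNFRSF10B, a receptor for TRAIL, by 0.77 ± 0.08. GDF15, a secreted stress marker, read 1.45 ± 0.07 from a probe set ending in _x_at, and its other probe sets read -0.22 and 0.26. Those others stood at 3.84 and 3.41 at 40 nM. SESN2, which is on this list and on that of ATF4, fell by 0.20 ± 0.06. Without probe sets ending in _x_at or _s_at, 11 of the 18 genes that changed were still measured, and 10 of those 11 kept their call.

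Of 17 BCL2 family genes 8 rose and 1 fell, with a median of 0.23. Beside BCL2A1, the pro-apoptotic BID rose by 1.11 ± 0.06, PMAIP1 (NOXA) by 0.55 ± 0.06 and BIK by 0.47 ± 0.11, while BCL2L11 (BIM) read 0.52 ± 0.08 and lost its call with the mean of its probe sets. The fall was that of BNIP3L, a mitophagy receptor (-0.29 ± 0.07). BCL2 and MCL1 did not pass, at -0.09 and -0.06. Of 18 death receptors, caspases and IAPs 10 rose and 0 fell, with a median of 0.35, and the inhibitor of apoptosis BIRC2 rose by 0.58 ± 0.07. TNFRSF10D, a decoy receptor for TRAIL, rose by 0.45 ± 0.11, and the initiator caspase CASP8 read 0.50 ± 0.10, a call that ended without probe sets ending in _x_at or _s_at.

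Most genes of DNA replication and mitosis did not pass at 48 h, as was true of all genes, of which 10.5% rose and 10.7% fell. Of 24 DNA replication genes 4 rose and 3 fell, with a median of 0.04, and of 26 mitosis genes 4 rose and 1 fell, with a median of 0.06. The sliding clamp PCNA rose by 0.35 ± 0.05, GINS1 by 0.23 ± 0.05, the mitotic kinase CDK1 by 0.39 ± 0.07 and the ubiquitin-conjugating enzyme UBE2C by 0.39 ± 0.05, and the phosphatase CDC25B fell by 0.40 ± 0.06. No gene of either list changed by 2-fold, and the changes lay between -0.30 and 0.35 for replication and between -0.40 and 0.53 for mitosis. The calls of RRM2, POLA1, GINS4, AURKA and NUSAP1 each ended under at least 1 alternative. Of 18 G1 cyclins, CDKs and inhibitors 6 rose and 3 fell, with a median of 0.17. Cyclin D3 (CCND3) rose by 0.98 ± 0.06, the E cyclins CCNE1 and CCNE2 by 0.59 ± 0.08 and 0.56 ± 0.10, and MYC fell by 0.50 ± 0.06.

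The probe sets that represent the HSP90 genes, which are their brightest, did not pass, although others of HSP90AA1 and HSP90AB1 did. HSP90AA1, the inducible cytosolic form, read 13.64, 13.64 and 13.60 at 40 nM against 13.56, 13.54 and 13.54 in vehicle (0.08 ± 0.05, limma adjusted p = 0.31). HSP90AB1, the constitutive cytosolic form, read 12.76, 12.75 and 12.71 at 40 nM against 12.62, 12.66 and 12.67 in vehicle (0.09 ± 0.05, adjusted p = 0.21). The arrays of the groups did not overlap for either gene, as for 38.8% of all genes, although their nearest values lay close together. HSP90AA1 passed with a floor at the 20th percentile (adjusted p = 0.022) and with an intensity trend and robust prior (0.016), and HSP90AB1 passed in those settings (0.0037 and 0.0087) and with the mean of its probe sets (0.25, adjusted p = 0.0071). Of the other probe sets, 1 of 3 for HSP90AA1 was called higher (0.30 ± 0.08, limma adjusted p = 0.020 over all probe sets), and both for HSP90AB1 were (0.43 ± 0.12 and 0.24 ± 0.06, adjusted p = 0.021 and 0.016). HSP90B1 of the endoplasmic reticulum read 0.00 ± 0.09 and the mitochondrial TRAP1 -0.08 ± 0.06. The half-widths of their 95% intervals were 0.10, 0.10, 0.20 and 0.13 in the order HSP90AA1, HSP90AB1, HSP90B1 and TRAP1.

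HSF1 itself read 8.54, 8.48 and 8.56 at 40 nM against 8.74, 8.79 and 8.87 in vehicle (-0.27 ± 0.06, adjusted p = 0.005), and its call ended when its probe sets were averaged (-0.17). Of 20 HSP90 paralogs and co-chaperones 5 rose and 1 fell, with a median of 0.04. The immunophilin FKBP4 rose by 0.41 ± 0.07 and ST13, which links HSP70 to HSP90, by 0.38 ± 0.05, and the calls of CHORDC1 (0.48 ± 0.06) and the kinase-specific CDC37 (0.27 ± 0.07) ended under at least 1 alternative. Of 29 HSP70, HSP110, J-domain and small heat shock proteins 8 rose and 2 fell, with a median of 0.05. HSPA4L of the HSP110 family read 8.11, 8.35 and 8.35 at 40 nM against 7.29, 7.16 and 7.39 in vehicle (0.99 ± 0.11), and HSPH1 of the same family rose by 0.39 ± 0.06. HSPA13, a microsomal HSP70, fell by 0.58 ± 0.10. HSPB8, a small heat shock protein that works with BAG3, read 1.25 ± 0.07 from a probe set ending in _s_at, and 0.04 from another. At 40 nM they stood at 8.42 and 4.5. HSPB1 (HSP27) read 12.45, 12.57 and 12.55 at 40 nM against 12.46, 12.43 and 12.40 in vehicle, groups that overlap (0.09 ± 0.06, adjusted p = 0.41). DNAJB1, the main J-domain partner of HSP70 in the heat shock response, did not pass at -0.08 ± 0.06, and no probe set that names 1 gene only read HSPA1A, HSPA1B or HSPA8.

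**Figure D3:**
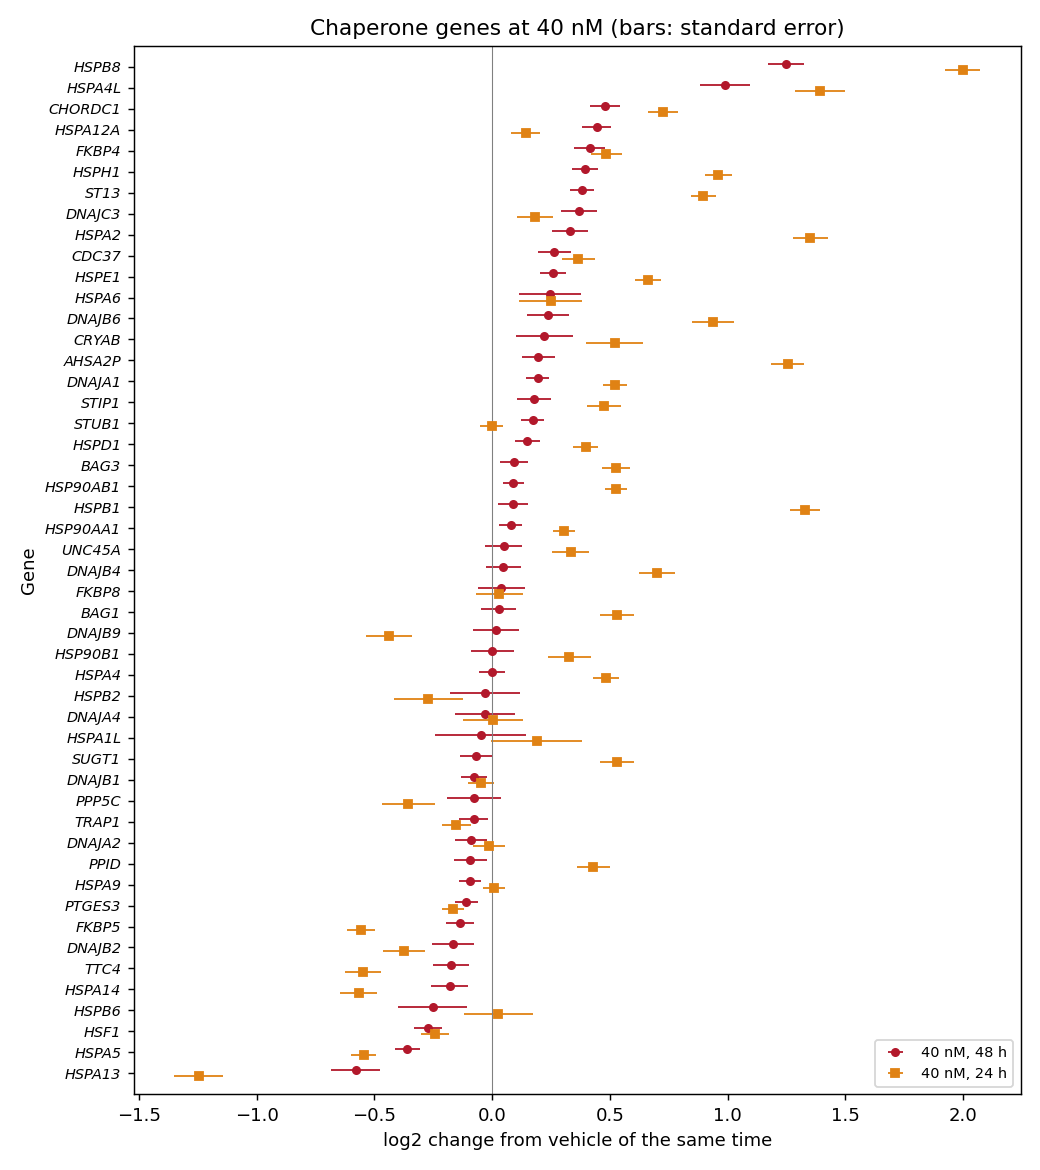
Log2 change from the vehicle of the same time (x axis, bars are standard errors) for 49 chaperone genes (y axis) at 40 nM, with circles for 48 h and squares for 24 h. At 48 h most genes lie near 0 and HSPB8 and HSPA4L are at 1.25 and 0.99, whereas HSPB1 is at 0.09 at 48 h and 1.33 at 24 h.

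Most ATF4 targets were lower. Of 33 ATF4 targets and genes of amino acid supply 27 fell and 2 rose, with a median of -0.40. TRIB3, a pseudokinase induced by ATF4, read 9.78, 9.70 and 9.76 at 40 nM against 10.94, 10.96 and 10.94 in vehicle (-1.20 ± 0.05), the lipoprotein receptor VLDLR fell by 0.84 ± 0.07 and CBS of transsulfuration by 0.77 ± 0.08. The transcription factor ATF5 rose by 0.69 ± 0.09, and ATF3 read 0.84 ± 0.11 from a probe set ending in _s_at and 0.12 and -0.11 from its others. Without probe sets of those kinds, 19 of the 29 genes that changed were still measured, and 17 of those 19 kept their call. Of 24 genes that answer unfolded protein in the endoplasmic reticulum 10 fell and 2 rose, with a median of -0.10. DDIT3 (CHOP) read 7.67, 7.68 and 7.74 at 40 nM against 8.53, 8.40 and 8.39 in vehicle (-0.75 ± 0.07), CHAC1 fell by 0.45 ± 0.10, XBP1 by 0.40 ± 0.09 and the chaperone BiP (HSPA5) by 0.36 ± 0.05. The rises were those of DNAJC3 (0.37 ± 0.08) and the sensor ERN1 (0.60 ± 0.15), whose call ended without single arrays. HERPUD1 read -0.89 ± 0.05, and -0.24 when its probe set ending in _s_at was left out. Of 25 constitutive proteasome subunits 5 fell and 0 rose, with a median of -0.11 and a largest change of -0.35 ± 0.06 in PSMC3; the count of falls lay between 2 and 12 under other settings.

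Redox and drug-handling genes rose in part. Of 26 NRF2 targets 14 rose and 1 fell, with a median of 0.18. Beside GPX2, heme oxygenase HMOX1 read 10.18, 10.23 and 10.27 at 40 nM against 8.99, 8.96 and 9.04 in vehicle (1.23 ± 0.06), PIR rose by 0.68 ± 0.06 and glutathione reductase GSR by 0.42 ± 0.09, and the cystine transporter SLC7A11, also an ATF4 target, fell by 0.44 ± 0.05. Of 29 genes listed as drug-metabolizing enzymes and efflux pumps 12 rose and 2 fell, with a median of 0.19. The list also held HGD, of tyrosine breakdown, and AHRR, neither of which is such an enzyme or pump. Beside HGD, the efflux pump ABCG2 rose by 1.02 ± 0.15, CYP4F3 by 0.89 ± 0.15 and CYP3A5 by 0.85 ± 0.14, while AHRR, the repressor of the aryl hydrocarbon receptor, and its target CYP1B1 fell by 0.70 ± 0.16 and 0.60 ± 0.08. NQO1, the quinone reductase that acts on geldanamycin, did not pass, at 0.12.

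Genes of metabolism changed in both directions. Of 28 genes of glycolysis and hypoxia 10 rose and 4 fell, with a median of 0.03. PFKFB4, a regulator of phosphofructokinase, read 9.29, 9.28 and 9.35 at 40 nM against 7.64, 7.43 and 7.55 in vehicle (1.76 ± 0.07), and ADM, the peptide adrenomedullin, rose by 1.19 ± 0.07. The glucose transporter SLC2A1 fell by 0.79 ± 0.05. Of 18 genes of sterol and fatty acid synthesis 6 rose and 1 fell, with a median of 0.10. HMGCS1 of cholesterol synthesis rose by 0.51 ± 0.08 and the elongase ELOVL6 fell by 0.49 ± 0.07, and the calls of FADS2, SCD and IDI1 each ended under at least 1 alternative. Of 16 genes of iron handling and metallothioneins 6 rose and 6 fell. The iron exporter SLC40A1 and the zinc and iron importer SLC39A8 rose by 0.87 ± 0.10 and 0.84 ± 0.11. All 6 falls were of metallothioneins, between -0.43 and -0.56, and none was measured without probe sets ending in _x_at or _s_at, which share sequence within that family. Of 25 autophagy and lysosome genes 10 rose and 6 fell, with a median of 0.17. The cysteine protease CTSS read 8.56, 8.74 and 8.77 at 40 nM against 6.94, 6.96 and 7.30 in vehicle (1.62 ± 0.11), cathepsin L (CTSL) rose by 0.57 ± 0.06, and NPC2 of cholesterol export and the lysosomal regulator TFEB fell by 0.57 ± 0.06 and 0.54 ± 0.08.

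Transcripts of HSP90 client kinases moved both ways. Of 23 receptor tyrosine kinases 7 rose and 4 fell, with a median of -0.01. FGFR4 read 8.72, 8.70 and 8.80 at 40 nM against 7.55, 7.56 and 7.50 in vehicle (1.20 ± 0.06), and FGFR3 rose by 1.18 ± 0.17 and ROR1 by 0.61 ± 0.12. Beside AXL, the falls were of IGF1R, MET and ERBB2, by 0.48 ± 0.07, 0.41 ± 0.06 and 0.37 ± 0.06, and EGFR read 0.50 ± 0.08 but lost its call when its probe sets were averaged (0.11). Of 20 cytosolic kinase clients 6 rose and 4 fell, with a median of 0.01. LYN, a SRC family kinase, rose by 0.88 ± 0.09, and the calls of SRC (0.74 ± 0.06), FYN (-0.58 ± 0.07) and AKT2 (-0.38 ± 0.07) each ended under at least 1 alternative. Of 26 genes of ERK output and feedback 7 fell and 5 rose, with a median of -0.11. Beside EGR1 and FOS, the ERK phosphatase DUSP5 and the EGF family ligand HBEGF rose by 1.04 ± 0.09 and 0.97 ± 0.08, and ETV1 read -0.81 ± 0.15, with -0.20 as the mean of its probe sets. DUSP6, SPRY2 and SPRY4, feedback inhibitors of ERK signalling, did not pass, at -0.08, -0.18 and 0.08. Of 21 nuclear receptors and glucocorticoid targets 3 fell and 0 rose, with a median of -0.04, led by the retinoic acid receptor RARB (-0.51 ± 0.07). The calls of TSC22D3 (-0.42 ± 0.08) and PPARG (-0.24 ± 0.07) each ended under at least 1 alternative.

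Genes of cell shape and matrix changed in both directions. Of 26 genes of epithelial junctions or keratins 10 rose and 1 fell, with a median of 0.09. CDH1, which encodes E-cadherin, read 8.74, 8.72 and 8.72 at 40 nM against 6.99, 6.95 and 6.92 in vehicle (1.78 ± 0.06). Its other probe set read -0.14, from 3.42 at 40 nM and 3.55 in vehicle, below the array median, which averaged 4.87. The claudin CLDN2 rose by 1.47 ± 0.08, plakoglobin JUP by 1.32 ± 0.07 and CLDN1 by 0.55 ± 0.07, the keratins KRT8 and KRT18 by 0.38 ± 0.05 and 0.31 ± 0.05, and KRT7 fell by 0.38 ± 0.05. The calls of KRT19 (0.64 ± 0.15) and EPCAM (0.41 ± 0.11) each ended under at least 1 alternative. Of 16 mesenchymal regulators and markers 9 fell and 3 rose, with a median of -0.21. The repressor SNAI2 read 7.84, 7.79 and 7.84 at 40 nM against 8.71, 8.62 and 8.55 in vehicle (-0.80 ± 0.06), and the ectonucleotidase NT5E, TWIST1 and SNAI1 fell by 0.76 ± 0.11, 0.66 ± 0.16 and 0.44 ± 0.10. S100A4 and ITGA5 rose by 0.37 ± 0.05 and 0.25 ± 0.06. ZEB1 and ZEB2 did not pass, at -0.03 and -0.11.

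Of 21 actin genes and SRF targets 9 fell and 2 rose, with a median of -0.16. CCN2, a matricellular protein, read 7.67, 7.87 and 7.79 at 40 nM against 8.89, 8.81 and 8.70 in vehicle (-1.03 ± 0.09), and tropomyosin TPM4 fell by 0.84 ± 0.08 and FHL2 by 0.39 ± 0.06. Smooth muscle actin ACTA2 rose by 1.41 ± 0.09 and CNN3 by 0.34 ± 0.07. The 3 probe sets of ACTA2 ranged between -0.32 and 1.41. At 40 nM the one used stood at 9.53 and the others at 2.97 and 2.74. TAGLN read -1.33 ± 0.09, with -0.12 in the probe set that does not end in _s_at. Of 30 genes of extracellular matrix and proteases 11 rose and 7 fell, with a median of 0.05. Matrilysin MMP7 read 8.95, 9.21 and 9.06 at 40 nM against 7.24, 6.91 and 6.99 in vehicle (2.03 ± 0.15), while gelatinase A (MMP2) read 9.15, 9.21 and 9.16 against 10.16, 10.16 and 10.17 (-0.99 ± 0.07). The laminin chain LAMB3 rose by 1.32 ± 0.11, the plasminogen activator PLAT by 1.08 ± 0.10 and the basement membrane collagen COL4A1 by 0.93 ± 0.06, and tenascin C (TNC) fell by 0.93 ± 0.07. Of 12 integrins 2 rose and 2 fell, with a median of -0.02, and ITGA2 of the collagen receptor rose by 0.69 ± 0.07, ITGA6 of the laminin receptor fell by 0.40 ± 0.07 and ITGB5 (-0.23 ± 0.07) lost its call under several alternatives.

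Of 24 genes of BMP and TGF-beta signalling 5 rose and 5 fell, with a median of -0.01. GREM1 had the largest change, and BMP4, which GREM1 binds, rose by 0.47 ± 0.08, and SMAD7 and SKIL, feedback inhibitors of TGF-beta, fell by 0.41 ± 0.10 and 0.33 ± 0.08. ID1, ID2 and ID3, target genes of BMP, did not pass, at 0.00, 0.03 and -0.14. The call of SMAD4 (-0.46 ± 0.09) ended under at least 1 alternative. Of 23 secretory and tetraspanin-like genes 10 rose and 0 fell, with a median of 0.15. Beside TM4SF4 and TM4SF20, AGR2, an isomerase that helps fold mucins, rose by 1.17 ± 0.06 and the trefoil peptide TFF1 by 0.96 ± 0.10, while the mucin MUC5AC (1.09 ± 0.11) lost its call without probe sets ending in _x_at or _s_at. Of 18 lineage factors of gut, liver and lung 7 rose and 4 fell, with a median of 0.25. Changes lay between -2.47 and 2.02, and 2 falls and 1 rise reached 2-fold. The largest change was the fall of KLF2 (-2.47), whose call rests on 1 probe set. EHF, an ETS factor of epithelia, read 9.96, 10.10 and 9.95 at 40 nM against 8.12, 7.80 and 8.04 in vehicle (2.02 ± 0.09), and ELF3 of the same family and SOX2 rose by 0.57 ± 0.07 and 0.58 ± 0.11.

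Markers of other cells were described beside these groups. Their counts are to be read beside the shares over all genes, of which 10.5% rose and 10.7% fell. Of 9 measured alveolar type 2 markers 0 rose and 0 fell, and surfactant genes SFTPB and SFTPC read -0.03 and -0.08. Of 7 epithelial identity genes 6 rose, with a median of 0.38. Endothelial markers had no call among 10, and fibroblast markers had 1 rise and 1 fall among 10, COL1A1 (0.35 ± 0.12) and LUM (-0.84 ± 0.15), both of which lost their calls under at least 1 alternative. Of 10 leukocyte markers 1 rose, the integrin chain ITGAM (1.21 ± 0.09), which read -0.13 without probe sets ending in _x_at or _s_at, and PTPRC, the pan-leukocyte marker CD45, did not pass at 0.10. The ITGAM probe set that read -0.13 stood at 4.1 at 40 nM, and the one used at 5.62. On the linear scale the summed leukocyte markers ranged between 236.0 and 255.6 at 40 nM and between 216.5 and 240.0 in vehicle.

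The effect of 40 nM differed between 48 h and 24 h in 3420 genes (17.3%), with the effect at 48 h above that at 24 h in 1816 (9.18%) and below it in 1604 (8.11%). This is the difference of differences in limma's fit, in which each time has its own vehicle arrays. The arrays of each time may have been normalized in a separate run, and the size of these differences depends on the scale of both. Every one of the 24 replication genes and 26 mitosis genes had a higher effect at 48 h, where their medians were 0.04 and 0.06, against -0.84 and -0.92 at 24 h. Among 16 chemokines 8 had a higher effect at 48 h and 1 a lower one, with medians of 1.11 at 48 h and 0.37 at 24 h, and among 17 cytokines 10 and 1, with medians of 0.67 and 0.01. IL6 changed by 1.86 at 48 h and -0.15 at 24 h. Among 33 ATF4 targets 19 had a higher effect at 48 h, that is a smaller fall for most, and 3 a lower one, with medians of -0.40 at 48 h and -0.73 at 24 h. Among 26 NRF2 targets none had a higher effect and 18 a lower one, with medians of 0.18 at 48 h and 0.69 at 24 h. Among 29 HSP70, HSP110, J-domain and small heat shock proteins 4 had a higher effect and 12 a lower one. HSPB1 was among those with a lower effect (0.09 at 48 h, 1.33 at 24 h, difference -1.24, limma adjusted p = 8.3e-07). Among 26 genes of ERK output 14 had a higher effect and 1 a lower one, with medians of -0.11 at 48 h and -0.64 at 24 h.

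The largest rises and falls were chosen by their effect at 48 h, and that choice favours a larger effect at 48 h than at 24 h. Over all genes 17.3% differed. Of the 15 largest rises, 12 had a different effect at 48 h than at 24 h, 10 of them a higher one. CCL5 changed by 2.98 ± 0.12 at 48 h and by 0.02 ± 0.12 at 24 h, BCL2A1 by 2.81 ± 0.15 and 0.09 ± 0.15, and VCAM1 by 2.67 ± 0.15 and 0.34 ± 0.15. PTX3 was higher by 2.48 ± 0.11 at 48 h and lower by 0.86 ± 0.11 at 24 h, each in limma's test. GPX2 and TM4SF4 rose less at 48 h (2.60 ± 0.07 and 2.56 ± 0.09) than at 24 h (3.48 ± 0.07 and 3.64 ± 0.09). Of the 15 largest falls 7 differed, 6 of them with a lower effect at 48 h. GREM1 changed by -2.72 ± 0.13 at 48 h and 0.07 ± 0.13 at 24 h, SCN9A by -1.40 ± 0.14 and 0.12 ± 0.14, and AXL by -1.44 ± 0.05 and -0.40 ± 0.05, while PLPP4 fell less at 48 h.

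Cells at 40 nM differed from cells at 10 nM after 48 h in 5211 genes (26.4%), 2345 higher at 40 nM (11.9%) and 2866 lower (14.5%). The poly-A spike controls averaged 5.48 at 40 nM, 3.32 at 10 nM and 5.60 in vehicle, and the ACTB 3' minus 5' difference 0.44 at 40 nM, 2.68 at 10 nM and 0.35 in vehicle. The part of these differences in the dose comparison was not tested. The effects of 40 nM and 10 nM share the 3 vehicle arrays, so they are given side by side. The genes counted next were chosen by their change on the 40 nM arrays, which favours a larger change at 40 nM than at 10 nM. Their counts are therefore no measure of dose dependence. Of the 15 largest rises 10 were higher at 40 nM than at 10 nM, 3 were lower and 2 did not pass. The change from vehicle was 3.42 at 40 nM and 1.40 at 10 nM for CCL20 and 3.19 and 1.15 for CCL2, but 2.98 and 3.69 for CCL5 and 2.67 and 4.10 for VCAM1. HGD rose by 2.42 at 40 nM and fell by 1.79 at 10 nM, and TM4SF20 rose by 2.54 and fell by 1.39. Of the 15 largest falls 10 were lower at 40 nM than at 10 nM, 3 were higher and 2 did not pass. EGR1 changed by -2.65 at 40 nM and -0.02 at 10 nM, whereas GREM1 changed by -2.72 and -3.63. The rises of PTX3 (2.48 at 40 nM and 2.47 at 10 nM) and EBI3 (2.60 and 2.25) were those whose dose difference did not pass.

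**Figure D4:**
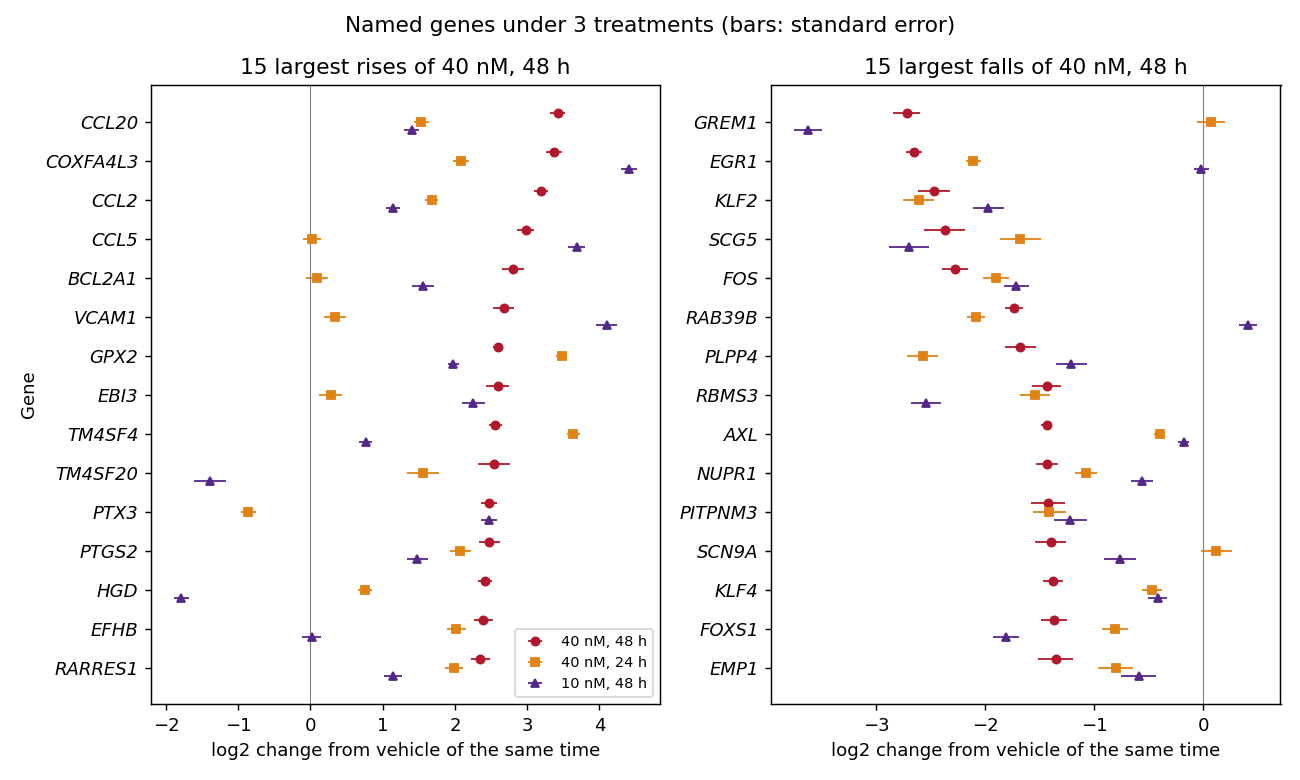
Log2 change from the vehicle of the same time (x axis, bars are standard errors) for the 15 largest rises and falls of 40 nM at 48 h (y axis), with circles for 40 nM at 48 h, squares for 40 nM at 24 h and triangles for 10 nM at 48 h. CCL5, BCL2A1 and VCAM1 have squares near 0 and circles above 2, and EGR1 has its triangle near 0 with its circle at -2.65.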

How the data were processed

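Total RNA of A549 cells was hybridised to Affymetrix HG-U133 Plus 2.0 arrays. The submitters' processing notes name RMA and Affymetrix Expression Console, without a version, and the authors deposited log2 values. Mean values over all probe sets were 5.13 to 5.14 on the arrays of 24 h and 5.52 on those of 48 h, so the times may have been normalized in separate runs, which was not tested. Levels were compared only within a time.

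Of 54675 probe sets, 62 were controls, 41091 had 1 gene symbol, 1801 had several and 11721 were unnamed here. Symbols were updated by gene ID for 41037. Each of 19775 genes was read from 1 probe set, that of the highest average over all arrays. All 15 arrays entered 1 model with a mean for each of the 5 groups (lmFit and eBayes of limma 3.58.1, under R 4.3.3, with 10 residual degrees of freedom), with Benjamini-Hochberg adjustment over all genes and a threshold of 0.05. The fit was tested on simulated data. Those values were drawn independently for each gene and array, and no result here rests on that test. Arrays have no read depth, and their number limits the precision: the median standard error of a change was 0.0966. Promoters are those of RefSeq on GRCh38.p14.

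The members and lists were chosen with earlier results of these data known. Named genes are the 15 largest rises and 15 largest falls that passed with no overlap, up to 5 passing members of each list with the largest change, 8 chaperone genes whatever they show, and passing members that moved against their list. List members named as not passing are outside that rule and were chosen after their values were seen. Alternatives changed the scaling, the treatment of low values, the probe set of a gene, the variance model, the arrays in the fit and the threshold.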

Additional observations from a re-analysis of the deposited data

Results flagged for a closer look

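For 19 of the 30 largest changes the effect of 40 nM at 48 h differed from its effect at 24 h, by the difference of differences in limma's fit. Over all genes 17.3% differed. The 30 genes were chosen by their effect at 48 h, which favours a larger effect at that time, so the count is descriptive only. The effect was higher at 48 h by 3.33 for PTX3, 2.96 for CCL5, 2.72 for BCL2A1, 2.33 for VCAM1 and 2.32 for EBI3. It was higher by 1.89 for CCL20, 1.66 for HGD, 1.52 for CCL2, 1.29 for COXFA4L3 and 0.99 for TM4SF20. PLPP4, which fell at both times, had a difference of 0.90. The difference was -1.08 for TM4SF4 and -0.88 for GPX2, which rose at both times. Among the falls it was -2.79 for GREM1, -1.52 for SCN9A, -1.04 for AXL, -0.90 for KLF4, -0.55 for EGR1 and -0.55 for FOXS1.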

How the results depend on the processing

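The count of 4207 genes lay between 2868 (without probe sets ending in _x_at or _s_at) and 5831 (array weights) under the other settings at the same threshold, and at 240 (195 higher, 45 lower) when a 2-fold change was also asked. Without probe sets ending in _x_at or _s_at, 1334 genes were lower, and 1027 had a lower effect at 48 h than at 24 h. When probe sets of a gene were averaged, 129 genes were higher and 24 lower by at least 2-fold. Leaving out 1 array at a time gave 3329 to 3493 genes, 1652 to 1835 higher and 1508 to 1796 lower, with 191 to 218 higher and 40 to 56 lower by at least 2-fold. It gave 2820 to 3527 genes for the difference between times (1466 to 1993 higher, 1245 to 1917 lower) and 4231 to 4853 between doses (1902 to 2117 higher, 2152 to 2883 lower). Of the 240 genes changed by at least 2-fold, those measured kept their call under every setting but the removal of _x_at and _s_at probe sets, where 179 of 202 did. That setting reversed KLF2 (0.048), GDF15 (-0.22), ITGAM (-0.13), PTGS1 (-0.033) and ITGB5 (0.23), none of which then passed, and the cause was not tested. At 40 nM the probe sets then read stood at 4.43 for KLF2, 3.84 for GDF15 and 4.1 for ITGAM. These lay below the array median, which averaged 4.87. Those of PTGS1 and ITGB5 stood at 5.10 and 7.19. Of 218 named genes 48 lost a call under some alternative. Same-numbered arrays did not deviate together (correlations of -0.28, -0.25 and 0.06 between the groups). Arrays of different number gave correlations between -0.11 and 0.31, and a shared batch was not tested. A replicate block gave 3864 genes, 3052 for the difference between times and 4894 between doses. A fit without the 10 nM arrays, chosen after seeing the data, gave 3971.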

Other observations

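The genes in these paragraphs were chosen after their values were seen. GREM1 and SCG5, both among the largest falls, are neighbours on chromosome 15 with 20912 bases between them in RefSeq. Their changes at 48 h were -2.72 ± 0.13 and -2.37 ± 0.19 with 40 nM, and at 24 h 0.07 and -1.68. Beyond GREM1, FMN1, a formin, fell by 0.43 ± 0.13 and AVEN, an apoptosis inhibitor, by 0.47 ± 0.07, while RYR3 between them did not pass at -0.01 ± 0.09.

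On chromosome 4, CXCL8 and its neighbours differed in size. RASSF6, a RAS association domain protein, rose by 1.14 ± 0.10, CXCL6 by 0.86 ± 0.16, CXCL1 by 1.48 ± 0.08, PPBP, the precursor of a platelet chemokine, by 0.76 ± 0.13, CXCL5 by 0.36 ± 0.06 and CXCL2 by 1.72 ± 0.08. PF4V1 and PF4 in the same cluster did not pass, at 0.01 ± 0.09 and -0.11 ± 0.16. On the arrays of 10 nM, which share the vehicle arrays, RASSF6, CXCL1, PPBP and PF4 changed by -1.26, -0.59, -0.96 and -1.08, and CXCL2 and CXCL3 by 0.82 and 0.40. CXCL8, CXCL6, CXCL5 and PF4V1 did not pass there, at 0.12, -0.27, -0.16 and -0.09.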
